A study of Mus musculus with 4 samples.

Results

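Granins and prohormone processing genes were followed in cells sorted from the trachea and the stomach of Tas2r143-reporter mice. The set holds 10 genes, taken by name from the 48709 genes of the expression table. These are the granin genes Chga, Chgb, Scg2, Scg3 and Vgf, the convertase genes Pcsk1 and Pcsk2, the genes of their binding proteins Pcsk1n and Scg5, and the carboxypeptidase gene Cpe. Granin genes means only the first 5 of these throughout, and Scg5 and Pcsk1n are grouped with the convertases. The set was selected on gene names and partly chosen by the EGFP and Tomato values of Scg5, which differed in opposite directions in the 2 tissues, so the differences between EGFP- and Tomato-positive cells are given here as a description, without a test.

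All mice had a C57BL/6 background and carried Tas2r143-CreERT2 together with the Rosa26flox-mT-stop-flox-mG reporter. In this model a BAC transgene, in which the Tas2r143, Tas2r135 and Tas2r126 genes are replaced by CreERT2, drives recombination from the Tas2r143 promoter. The mice were adult. All received tamoxifen on 5 days, and tissue was taken another 5 days later. The paper describes both sorts as taken in equal cell numbers from these mice, and names no separate animals for the Tomato-positive cells. Recombination replaces Tomato by EGFP in a cell and in its descendants. The EGFP sort took live EGFP-positive cells of any type, whereas the Tomato sort was also gated on the epithelial protein EpCAM and on the absence of EGFP. Cells of 3 mice of 1 transgenic line were pooled for each sort, which gave 4 libraries, a single one for each sort and tissue. There is thus no replicate, and no difference below has a replicate check.

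The tissue in a sample's title is never the one in its tissue field. Libraries are named here by their titles, which match the column headers of the expression table. The summed normalized counts of 8 tracheal epithelium markers were 1386869 in the trachea Tomato library and 88 in the stomach Tomato library, and those of 8 gastric epithelium markers were 33 and 1981229. In the EGFP libraries of trachea and stomach, the tracheal markers summed to 61814 and 2 and the gastric markers to 774 and 157657. All 12 tuft cell markers were higher in the EGFP than in the Tomato library of each tissue. Values are read counts of a gene after scaling of each library by the authors, called normalized counts here. The spacing of the low values puts the assigned reads at about 6.20 M in the trachea EGFP library and at 17.3 to 18.9 M in the others. For a gene listed at 0, the upper limit used for its expected count is 3 reads, which is 4.83 normalized counts in the trachea EGFP library and 2.36 to 2.45 in the others. All intervals and limits cover counting error only, since the cDNA was amplified without molecular identifiers. A fold given as at least a value sets the library at 0 to this limit. It takes the other library's value as it stands, without that value's own counting error.

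Granins are acidic proteins that are packed with peptide hormones into dense core vesicles, the storage granules of endocrine cells and neurons. In the same granules convertases cut prohormones behind pairs of basic residues, and carboxypeptidase E then removes the basic residues left at the new end. In the stomach this pathway is known from enteroendocrine cells, and in the trachea from the rare neuroendocrine cells. Tuft cells, which are chemosensory, are described as an epithelial cell type of their own. By the paper's staining for DCLK1, most EGFP-positive epithelial cells of the trachea and all of those counted in the stomach were tuft cells. The EGFP sort was not limited to tuft cells.

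Sequence before the gene start was looked up because most members were read in the same library, the Tomato-positive cells of the stomach. The RefSeq table of promoters (GRCm38.p6) held 8 of the 10 members, and Cpe and Vgf were without an entry. In the 250 bases before the RefSeq start, on both strands, the full cAMP response element TGACGTCA stood in 3 of the 8 members and in 1.55% of all 32841 windows of the same length. It holds the core motif TGACG on each strand, and this core stood in 7 of the 8 members and in 17.8% of all windows. These matches are a description of letters and not of binding. The full element of Chgb, Scg2 and Pcsk1 is shown in capitals with 11 bases on each side, read along the gene's strand from 5′ to 3′.
Chgb (chr2:132781559-132781588, plus strand): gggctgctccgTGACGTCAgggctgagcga
Scg2 (chr1:79440076-79440105, minus strand): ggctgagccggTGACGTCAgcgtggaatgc
Pcsk1 (chr13:75089768-75089797, plus strand): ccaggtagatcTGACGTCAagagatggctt
The element began 72 bases before the RefSeq start in Chgb, 68 bases in Scg2 and 78 bases in Pcsk1, which held a further core motif at 50 bases. In Chgb and Scg2 the GENCODE annotation has an exon of the same gene over it.

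Chga had the highest level of the set, and Scg5 differed in direction between the tissues, so their windows are shown where they lie outside annotated exons, with the core motif in capitals.
Chga (chr12:102554691-102554940, plus strand): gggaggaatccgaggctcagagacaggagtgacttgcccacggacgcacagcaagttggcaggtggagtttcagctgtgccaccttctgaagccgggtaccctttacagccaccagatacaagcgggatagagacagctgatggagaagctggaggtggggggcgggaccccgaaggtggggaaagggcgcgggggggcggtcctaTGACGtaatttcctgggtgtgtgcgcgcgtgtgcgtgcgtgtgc
Scg5 (chr2:113829122-113829341, minus strand): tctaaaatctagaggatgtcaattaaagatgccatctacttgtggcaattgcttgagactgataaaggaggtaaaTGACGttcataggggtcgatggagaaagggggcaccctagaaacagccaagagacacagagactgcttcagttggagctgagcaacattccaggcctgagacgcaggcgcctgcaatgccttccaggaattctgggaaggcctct
The core motif of Chga began 44 bases before the RefSeq start and that of Scg5 175 bases before it. Scg3 and Pcsk2 held 1 core motif each, at 30 and 34 bases, and Pcsk1n held none of these letters in this window.

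**Figure D1:**
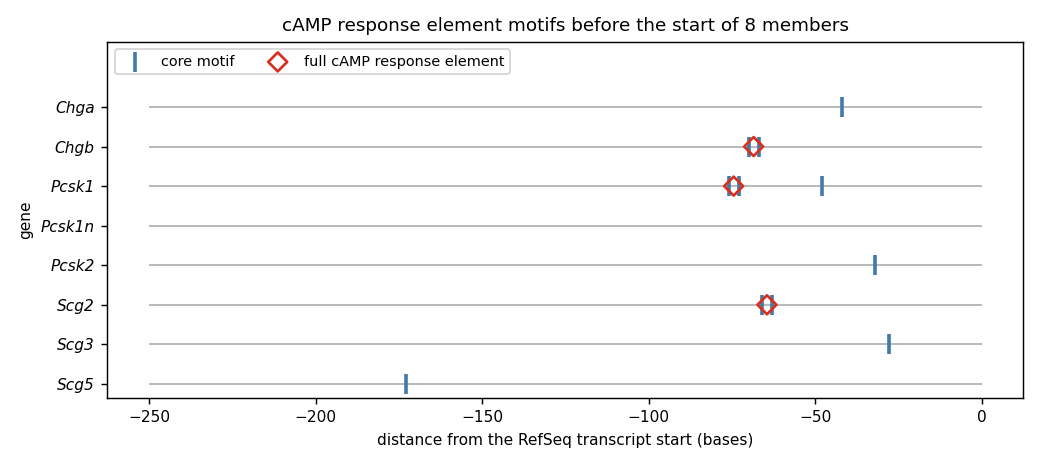
Positions of the cAMP response element motifs in the 250 bases before the RefSeq transcript start of 8 members. The horizontal axis gives the distance from the start in bases, blue bars are core motifs and red diamonds full elements, which stand in Chgb, Pcsk1 and Scg2, whereas Pcsk1n has no mark.

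The granin genes were read almost only in the Tomato-positive cells of the stomach. Chga, which encodes chromogranin A, a widely used marker of endocrine cells, was at 88713 normalized counts in the stomach Tomato library and listed at 0 in the other 3 libraries. The gene lies on chromosome 12 of GRCm38 from 102554969 to 102565028. Against the limit of 3 reads, Chga was at least 37622-fold higher in Tomato- than in EGFP-positive cells of the stomach. Chgb, the gene of chromogranin B on chromosome 2 from 132781278 to 132795079, was at 7869 normalized counts in the stomach Tomato library and listed at 0 elsewhere, a difference of at least 3337-fold. Both chromogranin genes were thus seen in a single library.
Scg3, whose protein helps to sort chromogranin A into granules, was at 278 normalized counts in the stomach Tomato library and at 0 elsewhere, which is at least 118-fold. It lies on chromosome 9 from 75643189 to 75684056. Scg2, the gene of secretogranin II on chromosome 1 from 79434669 to 79440120, was at 194 normalized counts in the stomach Tomato library, at 89 in the trachea Tomato library and at 0 in both EGFP libraries. Of the 5 granin genes, only Scg2 was read in the trachea. The Tomato library was at least 82.3-fold higher in the stomach and at least 18.4-fold higher in the trachea, where the value rests on about 110 reads.
Vgf, the gene of a peptide precursor of neurons and endocrine cells on chromosome 5 from 137026392 to 137033351, had 3 normalized counts in the stomach Tomato library, about 4 reads, and was at 0 in the others. The trachea EGFP library held the fewest reads, so for granin genes at 0 it gives the widest limit.

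Both convertase genes were found in the Tomato-positive cells of the stomach. Pcsk1, on chromosome 13 from 75089826 to 75134861, was at 507 normalized counts there and listed at 0 in the other 3 libraries, a difference between the stomach sorts of at least 215-fold. Pcsk2, on chromosome 2 from 143546156 to 143816285, was at 1026 normalized counts in the stomach Tomato library, 22 in the stomach EGFP library, 2 in the trachea Tomato library and 0 in the trachea EGFP library. In the stomach Pcsk2 was 46.6-fold higher in Tomato-positive cells (95% interval 32.1 to 70.4, Clopper-Pearson on estimated reads). The value of 2 in the trachea is below the limit of 3 reads. Exons of Pcsk2 overlap those of the antisense genes Pcsk2os1 and Pcsk2os2, and reads that overlap several genes were left out by the authors.
Pcsk1n, which encodes the convertase inhibitor proSAAS on chromosome X from 7919822 to 7924410, was at 10 normalized counts in the stomach Tomato library, about 12 reads, and at 0 in the others. It shares exon sequence with Eras on the opposite strand, and no source used here says whether reads were counted by strand.

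Scg5 was the member that differed in opposite directions. It encodes the chaperone protein that prohormone convertase 2 needs to become active, and lies on chromosome 2 from 113776362 to 113829121. In the trachea Scg5 was at 338 normalized counts in the EGFP library, about 210 reads, and listed at 0 in the Tomato library. In the stomach its EGFP library held 35 normalized counts and its Tomato library 1832, about 45 and 2245 reads. Tracheal EGFP-positive cells were at least 139-fold higher than tracheal Tomato-positive cells, whereas gastric Tomato-positive cells were 52.3-fold higher than gastric EGFP-positive cells (95% interval 38.6 to 71.2). Of the 3 members measured in both tissues, Scg2, Scg5 and Cpe, Scg5 was the 1 with such opposite differences. Among the 8594 genes measured in both tissues, that is at 50 normalized counts or more in 1 sort of each, 2.92% were likewise at least 4-fold higher in the trachea and lower in the stomach, and 2.86% went the other way round. The difference between the tissues itself was not tested, since it has 1 library in each group.
Between the EGFP libraries, Scg5 was 9.66-fold higher in the trachea than in the stomach (95% interval 6.90 to 13.5). Between the Tomato libraries it was at least 755-fold higher in the stomach. The order of Scg5 levels was thus stomach Tomato, trachea EGFP, stomach EGFP and trachea Tomato, and with 1 library each there is no spread over samples to set against this order. Ratios between tissues also rest on the authors' scaling, which their intervals do not cover, and were not worked out under another scaling. The EGFP libraries summed to 9.98 M normalized counts in the trachea and 13.6 M in the stomach.
Scg5 and its partner Pcsk2 were not read together everywhere. Per kb of exon, the level of Scg5 was 9.00 times that of Pcsk2 in the stomach Tomato library and 8.02 times in the stomach EGFP library, where both values are low. In the trachea EGFP library Scg5 was at 215 normalized counts per kb and Pcsk2 was listed at 0, as were Pcsk1, Chga and Chgb.

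Cpe was the only member above 0 in all 4 libraries. It encodes carboxypeptidase E, which acts after the convertases, and lies on chromosome 8 from 64592542 to 64693054. Cpe was at 457 normalized counts in the EGFP and 4146 in the Tomato library of the trachea, and at 15570 and 8111 in those of the stomach. In the trachea the Tomato library was 9.07-fold higher (95% interval 8.05 to 10.3). In the stomach the EGFP library was 1.92-fold higher (95% interval 1.87 to 1.97), which does not reach the 4-fold used here to call a difference. The gastric EGFP-positive cells held 34.1 times as much Cpe as the tracheal EGFP-positive cells (95% interval 30.3 to 38.4), whereas the Tomato-positive cells of the stomach held 1.96 times as much as those of the trachea (95% interval 1.89 to 2.02). These ratios hold for the authors' scaling only, since another scaling between the tissues would move them. Per kb of exon the level of Cpe in the stomach EGFP library was above that of 99.1% of the genes read in this library. Cpe was there without the 5 granin genes, which were all listed at 0 in the same library.
Markers of other cells also differed between the sorts, in the same direction in both tissues. All 7 fibroblast markers were lower in the EGFP than in the Tomato library of each tissue, with sums of 480 and 25888 in the trachea and of 262 and 26405 in the stomach. All measured B and plasma cell markers were higher in the EGFP libraries, 3 in the trachea and 5 in the stomach. The 6 B and plasma cell markers summed to 19332 normalized counts in the EGFP and 964 in the Tomato library of the trachea, and to 685365 and 36932 in the stomach. The immunoglobulin gene Igkc was above 0 in each of the trachea libraries, at 12790 and 948. Of the markers of B cells, Cd79b was at 1386 and 1 in EGFP- and Tomato-positive cells of the trachea and at 2855 and 2 in those of the stomach. Ms4a1, which also marks B cells, was listed at 0 in every library. Cd79a and Mzb1 of the same list were at 0 in both trachea libraries. In EGFP- and Tomato-positive cells of the stomach, Cd79a was at 791 and 20 and Mzb1 at 1848 and 59. The part of these cells in the levels of Cpe and Scg5 was not tested.

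**Figure D2:**
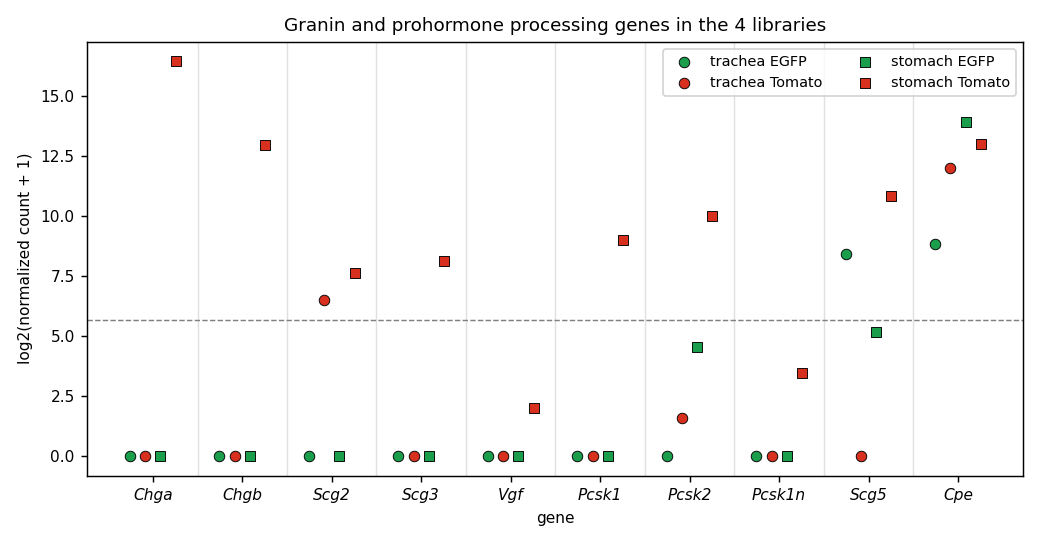
Normalized counts of the 10 genes in each library, as log2(normalized count + 1) on the vertical axis. Circles are trachea, squares stomach, green EGFP-positive and red Tomato-positive cells, 1 library each, and the dashed line marks 50 normalized counts. The stomach Tomato library holds all 10 genes, and only Cpe is above 0 in every library.

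The 2 sorts of a tissue were set against each other as log2((EGFP + 1)/(Tomato + 1)), and a gene was called higher or lower in EGFP-positive cells from 4-fold on, if its higher library reached 50 normalized counts. In the stomach 8 of the 10 genes reached this minimum. All but Cpe were lower in EGFP-positive cells, that is 7 genes, and none was higher. Among all 11094 genes at the minimum in the stomach, 22.4% were lower and 14.8% higher. Vgf and Pcsk1n stayed under the minimum. In the trachea 3 of the 10 genes reached the minimum. Scg5 was higher, with a log2(EGFP/Tomato) of 8.41, and Scg2 and Cpe were lower, at -6.49 and -3.18. Among all 10523 genes at the minimum in the trachea, 25.2% were higher and 32.4% lower. Since the genes were picked with these ratios known, and a gene read in 1 sort only had to pass the minimum through that sort, these counts are no evidence on the set as a whole. In bulk samples fewer cells of a type and less RNA per cell cannot be told apart.
Scaling both libraries of a tissue to the same total shifts the log2 ratio of well-read genes by 0.58 in the trachea and 0.18 in the stomach, and changed no call of a member.

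**Figure D3:**
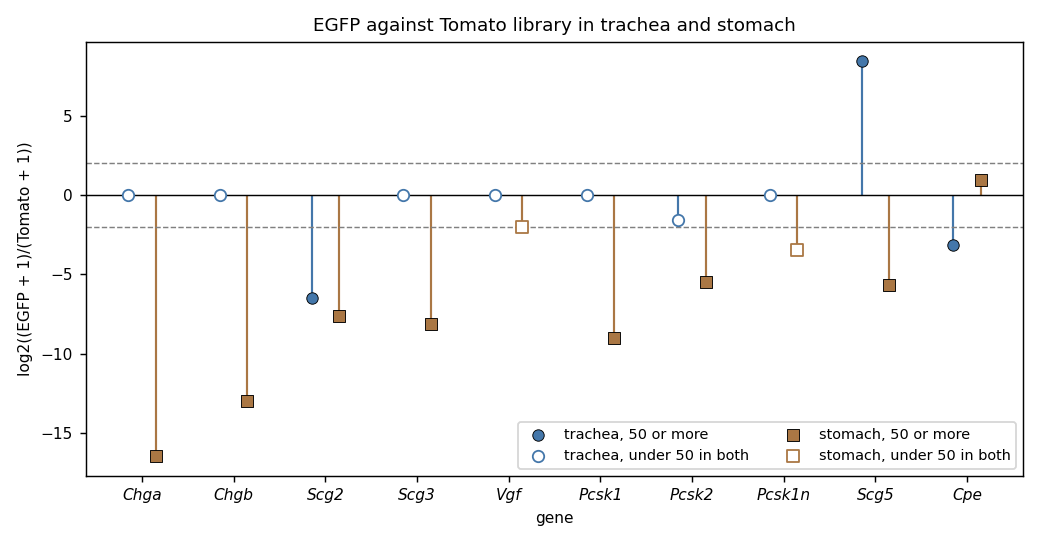
Relative expression log2((EGFP + 1)/(Tomato + 1)) of the 10 genes in trachea (blue circles) and stomach (brown squares), 1 library per sort. Open symbols are genes under 50 normalized counts in both libraries and dashed lines mark 4-fold. Scg5 is at 8.41 in the trachea and at -5.67 in the stomach, and the bars of genes at 0 in 1 library depend on the added count of 1.

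Within the stomach Tomato library the members spanned a wide range of levels. Per kb of exon, Chga was at 32189 normalized counts, above 99.9% of the genes read in this library, and made up 81.0% of the summed level of the set. It was followed by Cpe with 3109, Chgb with 2872 and Scg5 with 1168 normalized counts per kb. Pcsk2 with 130, Scg3 with 102, Pcsk1 with 90.5 and Scg2 with 77.1 formed a lower group, and Pcsk1n with 4.56 and Vgf with 1.01 stood near the limit. The level of Chga per kb was 11.2 times that of Chgb and 417 times that of Scg2. In the stomach EGFP library Cpe made up 99.6% of the summed level of the set, and in the trachea Tomato library 97.8%. In the trachea EGFP library Scg5 made up 55.2% and Cpe 44.8%, and the remaining 8 genes were listed at 0.
As a share of the whole library, the 10 genes took 0.703% of the normalized counts in the Tomato-positive cells of the stomach, 0.115% in the gastric EGFP-positive cells, 0.0285% in the tracheal Tomato-positive cells and 0.00797% in the tracheal EGFP-positive cells. Without Cpe the same shares were 0.651%, 0.000418%, 0.000612% and 0.00339%, so that the tracheal EGFP library, held up by Scg5 alone, came next after the stomach Tomato library.

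Genes with a like pattern over the 4 libraries were searched among 13023 genes at 50 or more normalized counts in at least 1 library, by the distance between their centered log2(normalized count + 1). Nearest to Scg5 was Slc9a4, a sodium-proton exchanger gene known from the stomach, at a distance of 1.02, with 147, 0, 28 and 848 normalized counts in the trachea EGFP, trachea Tomato, stomach EGFP and stomach Tomato libraries. Also among the 5 nearest genes were the kinase gene Frk at 1.52, the adhesion molecule gene Ncam1 at 1.52 and Slc43a3 at 1.62. Ncam1, which is used as a marker of neural and neuroendocrine cells, was at 813, 0, 139 and 2405 normalized counts in the same order. None of the 5 granin genes of the set was among the 5 genes nearest to Scg5, but this was settled beforehand. All granin genes were listed at 0 in the trachea EGFP library, and the values of Scg5 were part of the choice of the set.
Nearest to Chga was Chgb at a distance of 3.03, followed by the ghrelin gene Ghrl at 3.29, the lipase gene Cel at 3.31, the chemokine gene Ccl2 at 3.37 and Dbpht2 at 3.91. These likenesses rest on 4 libraries.

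The convertases outside the set act mostly along the general secretory route. Of 7 genes, 5 reached the minimum in the stomach, where 3 were lower in EGFP-positive cells, and 4 in the trachea, where Furin was lower and Pcsk4 higher, the latter not with the other scalings by median of ratios or 75th percentile. Furin, the convertase of the trans-Golgi network that most cells use, was at 26 and 665 normalized counts in EGFP- and Tomato-positive cells of the trachea and at 373 and 2227 in those of the stomach. Pcsk6 was at 30 and 730 in the stomach. Pcsk4, at 52 and 0 in the trachea, was only just at the minimum. The log2(EGFP/Tomato) of the measured convertases outside the set had a median of -0.21 in the trachea and -2.57 in the stomach, against -0.32 and -0.15 over all measured genes. Of all measured genes, 32.4% were lower and 25.2% higher in the trachea, and 22.4% and 14.8% in the stomach.

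Of 8 other enzymes that trim or cap peptides, 7 reached the minimum in the stomach, with 3 lower and 1 higher in EGFP-positive cells, and 5 in the trachea, with 2 lower and 1 higher. The shares over all measured genes were 22.4% lower and 14.8% higher in the stomach, and 32.4% lower and 25.2% higher in the trachea. Cpd, the carboxypeptidase of the Golgi that removes the same basic residues as Cpe, was at 10 and 228 normalized counts in EGFP- and Tomato-positive cells of the trachea and at 213 and 1034 in those of the stomach. The carboxypeptidase gene Cpm, whose enzyme sits on the cell surface, was higher in the gastric EGFP-positive cells, at 3695 and 245, while the secreted Cpn1 was lower at 50 and 1538. Qpct, which closes the N-terminus of peptides as pyroglutamate, was at 0 and 473 in the trachea and at 0 and 65 in the stomach, whereas its Golgi relative Qpctl was at 816 and 0 in the trachea and at 261 and 95 in the stomach. Pam, the enzyme that amidates peptides, was called neither higher nor lower, at 5235 and 9061 in the trachea and at 1345 and 4745 in the stomach. The medians were -0.79 in the trachea and -1.82 in the stomach, and scaled to the same total 2 instead of 1 were called higher in the trachea.

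Of 16 genes of dense core vesicle proteins, 11 reached the minimum in the stomach, where 6 were lower in EGFP-positive cells and 1 was higher. Over all genes measured there, 22.4% were lower and 14.8% higher. Resp18, an endocrine secretory protein gene, was listed at 0 in gastric EGFP-positive cells and at 3139 normalized counts in gastric Tomato-positive cells. Ptprn, a membrane protein of these vesicles, was at 0 and 114, the calcium sensor gene Syt7 at 1 and 124 and the nesfatin precursor gene Nucb2 at 64 and 1279. In the trachea 7 genes reached the minimum, with 2 higher and 1 lower, where 25.2% of all measured genes were higher and 32.4% lower. Slc18a2, the monoamine transporter of vesicles, was lower there at 19 and 1896. Cadps2, a priming factor of dense core vesicles, was higher in the EGFP library of both tissues, at 1266 and 194 in the trachea and at 347 and 36 in the stomach, and its relative Cadps was at 58 and 5 in the trachea. The medians were 1.70 in the trachea and -2.65 in the stomach, and 4 instead of 2 genes were called higher in the trachea when scaled to the same total and 1 when scaled to the same 75th percentile.

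Genes of the regulated exocytosis machinery were called in both directions in each tissue, as were genes in general. Of 21 genes, 16 reached the minimum in the stomach, with 7 lower and 4 higher in EGFP-positive cells, and 11 in the trachea, with 5 higher and 3 lower. Over all measured genes, 22.4% were lower and 14.8% higher in the stomach, and 25.2% were higher and 32.4% lower in the trachea. Snap25, a membrane fusion protein of neurons and endocrine cells, was listed at 0 in both EGFP libraries, against 362 normalized counts in the Tomato library of the trachea and 1496 in that of the stomach. Its partner Stx1a was at 0 and 197 in gastric EGFP- and Tomato-positive cells, and Rab3c at 0 and 320. In contrast, Rab3b was at 916 and 0 in the trachea and at 1893 and 275 in the stomach. Rab3d, a GTPase of secretory granules, was read in all 4 libraries without a call, at 816 and 1030 in the trachea and at 4015 and 3553 in the stomach. Unc13a, which primes vesicles for fusion, was at 291 and 0 in the trachea and at 53 and 2 in the stomach. The medians were 0.47 in the trachea and -0.42 in the stomach.

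Prohormones, the substrates of the convertases, were listed with the enzymes of amine hormones. Of 28 genes, 12 reached the minimum in the stomach, with 11 lower and 1 higher, where 22.4% of all measured genes were lower. In the trachea 7 reached it, with 5 lower and 2 higher, where 32.4% of all measured genes were lower. The remaining 16 and 21 genes were not measured. Ghrl was at 13 normalized counts in EGFP-positive and 90866 in Tomato-positive cells of the stomach, the gastrin gene Gast at 15 and 31644, and the enkephalin gene Penk at 0 and 1085. The somatostatin gene Sst was lower too, yet still at 718 in gastric EGFP-positive cells, against 39647 in gastric Tomato-positive cells. In the trachea the calcitonin gene-related peptide genes Calca and Calcb, known from neuroendocrine cells and sensory neurons, were at 0 and 287 and at 0 and 803. The secretin gene Sct was higher in EGFP-positive cells of both tissues, at 79 and 0 in the trachea and at 866 and 14 in the stomach, and Pomc was at 100 and 0 in the trachea. The medians were -7.48 and -6.91, or -5.20 and -5.84 with genes under 3 reads set to that limit.

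Of 15 endocrine transcription factors, 4 reached the minimum in the stomach and 3 in the trachea. Neurod1, a factor of enteroendocrine cells, was at 0 and 121 normalized counts in gastric EGFP- and Tomato-positive cells. Isl1 was lower in EGFP-positive cells of both tissues, at 87 and 1061 in the trachea and 88 and 1154 in the stomach. St18 was higher in both, at 2951 and 0 in the trachea and 1129 and 109 in the stomach, and Prox1 was higher in the stomach at 414 and 33. The medians were 1.80 in the trachea and -0.17 in the stomach, and 2 instead of 1 were higher in the trachea when scaled to the same total. Of the 4 genes around Rest, which encodes a repressor of neuronal and endocrine genes, 2 reached the minimum in each tissue. Rest was at 773 and 430 normalized counts in EGFP- and Tomato-positive cells of the trachea, which was not called, and at 727 and 91 in those of the stomach, where it was higher. Its corepressor Rcor1 was at 0 and 65 in the trachea and at 148 and 41 in the stomach. The medians over these 2 genes were -2.60 in the trachea, or -1.45 with Rcor1 at the limit of 3 reads, and 2.41 in the stomach. Scaled to the same total, 2 instead of 1 were called higher in the stomach.

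**Figure D4:**
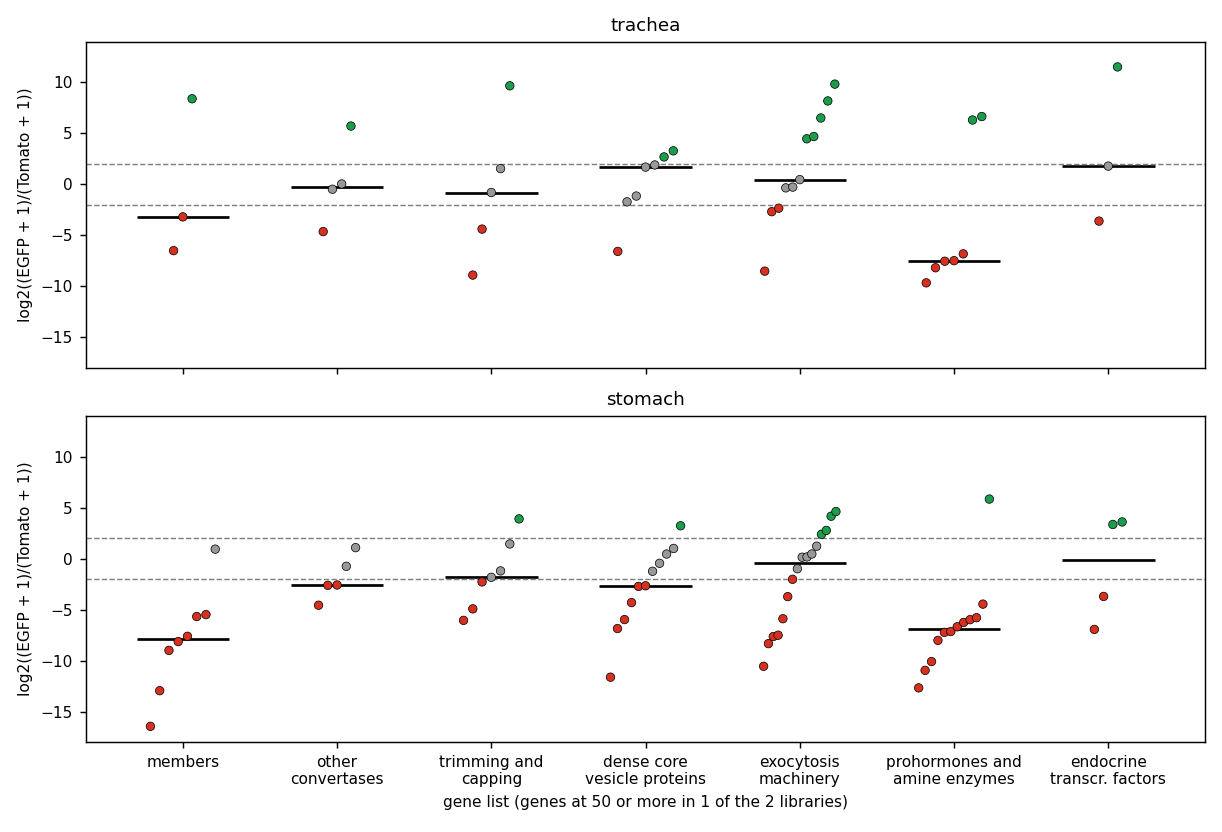
Relative expression log2((EGFP + 1)/(Tomato + 1)) of the members and of 6 lists of pathway genes in trachea (top) and stomach (bottom), 1 library per sort. Points are genes at 50 or more normalized counts, green if higher and red if lower in EGFP-positive cells by 4-fold (dashed lines), gray if neither, and bars are medians. Measured prohormones lie mostly under the lower line, while the exocytosis list reaches past both lines in both tissues.

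Markers of other cells that can use these genes were counted in the same way. Of 10 neuron markers, the 4 at the minimum in the stomach were lower in EGFP-positive cells, with sums of 0 in the EGFP and 1800 in the Tomato library, of which Snap25 gave 1496. In the trachea Snap25 and Stmn2 were lower and Nefl was higher, at 150 and 0, with sums of 152 and 739. Gap43, which marks neurons, was listed at 0 in every library. The 4 glia markers summed to 66 or less in every library, and 1 of them, S100b at 66 and 0 in the trachea, was called higher. All measured fibroblast and smooth muscle markers were lower, 7 and 3 in the trachea and 7 and 5 in the stomach. Of the endothelial markers 2 of 3 were lower in the trachea and 3 of 4 in the stomach, and Tek was higher in both. Of the myeloid markers 5 of 6 were lower in the trachea and 6 of 7 in the stomach. Mast cell markers were lower for 2 of 3 in the trachea, where Kit was higher, and for 5 of 6 in the stomach. The part of these cells in the granin and convertase levels was not tested.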

How the data were processed

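EGFP- and Tomato-positive cells of trachea and stomach gave 1 library each, from RNA pooled over 3 mice and amplified with a SMART-Seq kit. Single-end reads were trimmed by the authors (Reaper), mapped to GRCm38 (STAR 2.4.0a) and assigned to genes if they touched an exon (featureCounts 1.4.5-p1), except reads on several genes or places. The deposited signal is this count after scaling of each library, as whole numbers, and no source used here states the scaling. All 37 mitochondrial genes are listed at 0.

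For each library, the normalized count that 1 read stands for was taken as the step whose rounded multiples best fitted the values 3 to 60, after tests on simulated data. Normalized counts divided by it gave estimated reads for exact Clopper-Pearson intervals (95%) and for the limit of 3 reads. No count model was run: within a tissue, 1 library per sort leaves no residual spread, and a fit over both tissues with sort and tissue as terms was not made. The pseudocount was 1, the minimum 50 and the size rule 4-fold. Of 116 symbols on more than 1 line, the line with most normalized counts was taken, which touched no member. Levels per kb used the merged exons of GENCODE M21 (GRCm38), which need not be the authors' annotation.

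Members and the 18 other lists were chosen with earlier results of these data known. Named are all members, up to 5 genes of a list, those with the largest absolute ratio past the size rule, partners and substrates of members, and the 5 genes nearest to Scg5 and Chga. Further genes that fill a small count or mark a cell type were named after their values were seen. Some genes that this rule names are not reported here. Python 3.11.15, numpy 2.4.6, pandas 2.3.3, scipy 1.17.1 and matplotlib 3.10.9 were used.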

Additional observations from a re-analysis of the deposited data

Results flagged for a closer look

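Scg5 was called higher in EGFP-positive cells of the trachea and lower in those of the stomach, with a difference of 14.08 between the log2(EGFP/Tomato) of the 2 tissues. It was at 338 and 0 normalized counts in the trachea and at 35 and 1832 in the stomach, and this opposite direction was part of the choice of the genes. Rab27a, a small GTPase of granule docking, was the other of the 74 listed genes measured in both tissues, out of 187, that was called in opposite directions, with a difference of -5.07. It was at 551 normalized counts in EGFP-positive and 3514 in Tomato-positive cells of the trachea, and at 10850 and 2060 in those of the stomach. Among all genes at the minimum in both tissues, 2.86% were lower in the trachea and higher in the stomach. Neither difference between the tissues was tested, since each group is 1 library.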

How the results depend on the processing

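The counts of members called kept their size within 1.5 times under pseudocounts of 0.1 and 10, size rules of 2-fold and 8-fold, no minimum, and the 3 other scalings. In the stomach 7 genes were lower, and 5 to 9 with another minimum. A minimum of 500 normalized counts changed the trachea, where 0 genes were higher and 1 was lower, and then 0 genes differed in opposite directions between the tissues, because Scg5 at 338 and Scg2 at 89 fall below that minimum. No called log2(EGFP/Tomato) of a member changed sign. The log2 ratio of a gene at 0 in 1 sort depends on the pseudocount, and that of Scg5 in the trachea ran from 5.12 with a pseudocount of 10 to 11.72 with 0.1. Scaling to the same 75th percentile shifts log2 ratios by -0.24 in the trachea and -0.15 in the stomach. No paired analysis was possible because each tissue has only 1 pooled library per sort, and no replicate could be left out. A fit that takes the tissues as a block was not run. The trachea EGFP library had about 6.20 M assigned reads, which limits what a value of 0 shows there.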
